A study of Homo sapiens with 24 samples.

Results

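The 52 genes described here encode the machinery of DNA replication, from origin licensing to nucleotide supply, and were chosen by symbol as replication origin, fork and nucleotide genes, out of the 25702 Entrez identifiers counted by RNA-seq in each sample. All 52 passed the filter on low counts, and the lowest count of any of them in any sample was 6. Polyadenylated RNA was sequenced from IMR90 cells, a line of human diploid lung fibroblasts, in 4 groups of 6 biological replicates. Every cell, controls included, had been infected with a retrovirus for ER:HRAS(G12V), an oncogenic HRAS fused to the oestrogen receptor that is switched on by 4-hydroxytamoxifen (4OHT), and with a second retrovirus. Growing cells carried the empty MSCV vector and received no 4OHT. The shHMGA1 cells carried MSCV miR30 shHMGA1, a microRNA-embedded hairpin named for the chromatin protein HMGA1, and received no 4OHT. RIS cells (RAS-induced senescence) carried the empty vector and were treated with 4OHT for 6 days. RIS+shHMGA1 cells carried the hairpin and had the same 4OHT treatment. Each group is thus a model of 1 fibroblast line with a retrovirally driven oncogene and, where present, 1 hairpin construct, and no second hairpin was analysed here.

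Replication starts when the origin recognition complex, CDC6 and CDT1 load the ring-shaped MCM helicase onto DNA in G1. The kinase CDC7 with its activator DBF4, together with MCM10, CDC45 and the GINS complex, then turns the loaded helicase into a moving fork, where polymerases copy DNA with the sliding clamp PCNA, the single-strand binding complex RPA and a supply of deoxynucleotides. Many of these genes are transcribed in late G1 and S phase under E2F factors, and senescence, a stable arrest of the cell cycle that oncogenic RAS imposes on fibroblasts, is known for low expression of such genes.

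The E2F recognition sequence is shown because 20 of the 46 genes with a RefSeq promoter window (43.5%) carried it, against 4.53% of the 10412 genes tested for expression that had a window. A window runs from 250 bases before to 50 bases after a gene's start on the GRCh38.p14 assembly, and the search was for TTTCCCGC or TTTGGCGC on either strand, in any window of a gene. Capitals mark the motif, which reads GCGGGAAA or GCGCCAAA where it lies on the opposite strand, and each stretch lies upstream of the annotated start.
MCM6 (chr2:135876570-135876613, minus strand): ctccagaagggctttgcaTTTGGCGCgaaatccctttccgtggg
MCM6 (chr2:135876508-135876551, minus strand): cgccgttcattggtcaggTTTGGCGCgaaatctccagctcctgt
MCM3 (chr6:52284891-52284934, minus strand): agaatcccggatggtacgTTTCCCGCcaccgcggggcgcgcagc
CDT1 (chr16:88803736-88803779, plus strand): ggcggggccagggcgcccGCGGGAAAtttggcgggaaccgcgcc
GINS2 (chr16:85688960-85689003, minus strand): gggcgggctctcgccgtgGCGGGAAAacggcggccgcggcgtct
POLA1 (chrX:24693763-24693806, plus strand): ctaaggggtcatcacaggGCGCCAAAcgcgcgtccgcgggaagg
LIG1 (chr19:48170433-48170476, minus strand): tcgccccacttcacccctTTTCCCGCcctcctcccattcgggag
PCNA (chr20:5126656-5126699, minus strand): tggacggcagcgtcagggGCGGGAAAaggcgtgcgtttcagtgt
TYMS (chr18:657596-657639, plus strand): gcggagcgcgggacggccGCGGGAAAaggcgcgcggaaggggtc

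The MCM6 window held the motif at 2 places, beginning at positions -152 and -90 counted from the gene's start. TTTGGCGC on the 2 strands can share letters, as it did in the window of *TIPIN*. The other 6 genes, GINS4, MCM4, POLD3, RPA3, RPA2 and MCM5, had no entry in the promoter table. The cell cycle homology element (TTTGAA or TTCGAA) was found in 5 of the 46 genes (10.9%) and in 15.7% of the tested genes, and CCAAT in 28 (60.9%) and in 43% of the tested genes. A match describes these letters only, and factor binding was not measured here.

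Total counts ranged from 8698070 to 23103424 a sample, and the hairpin samples had less *HMGA1* than the vector samples in every replicate. *HMGA1* was at 639 to 861 CPM in growing and 641 to 786 CPM in RIS cells, against 54.4 to 143 CPM in shHMGA1 and 59.98 to 262 CPM in RIS+shHMGA1 cells (CPM, counts scaled to the TMM-normalised library size). The fibroblast genes *VIM* and *COL1A1* were expressed in every sample. Of 16 markers of epithelium, endothelium and blood cells, 14 stayed at or below 1.27 CPM in every sample, and the exceptions were *TEK* (13.1 to 123 CPM) and *CD68* (40.2 to 106 CPM). In 2 libraries the markers of proliferation and senescence went against the 4OHT label. The library labelled growing replicate 4 had *MKI67*, a proliferation marker, at 3.73 CPM and the cytokine *IL6* at 3396 CPM, whereas the other growing samples had *MKI67* at 87.6 CPM or more and *IL6* at 840.4 CPM or less. The library labelled RIS replicate 2 had *MKI67* at 141 CPM and *IL6* at 288 CPM. Both were kept in their labelled groups, and the main results that include them are given with and without them.

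The replication genes stood apart in the same pair of libraries. Their mean log2 CPM was 3.39 in growing replicate 4 and 4.80 to 5.51 in the other growing samples, and 4.75 in RIS replicate 2 and 3.25 to 3.59 in the other RIS samples. The shHMGA1 samples lay between 4.98 and 5.53 and the RIS+shHMGA1 samples between 3.47 and 3.54, with no overlap between these groups. In whole-cell RNA, less RNA per cell and fewer cells in S phase cannot be told apart.

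**Figure D1:**
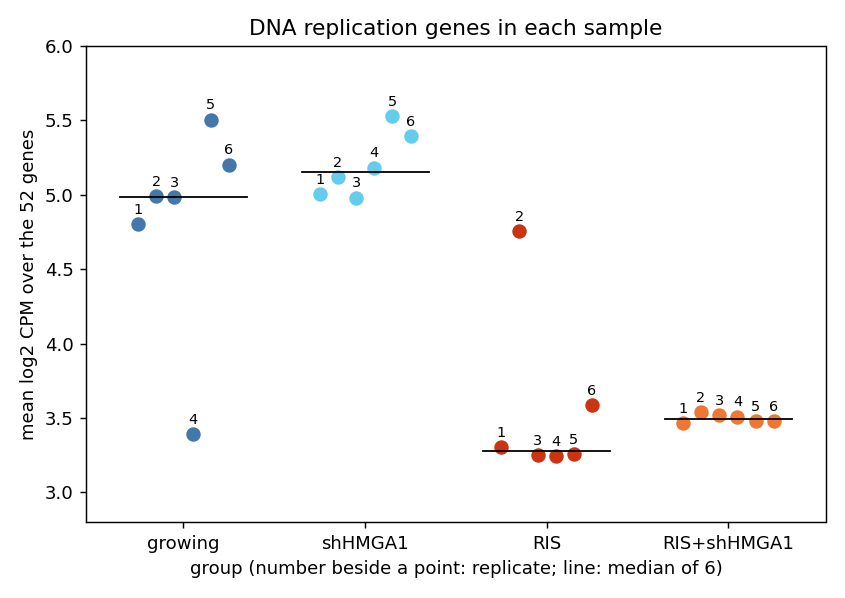
Mean log2 CPM over the 52 replication genes (vertical axis) in each of the 24 samples by group, with replicate numbers beside the points and the group median as a line. Growing replicate 4 (3.39) sits among the 4OHT-treated samples and RIS replicate 2 (4.75) next to the untreated ones.

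What 4OHT did to these genes was examined first where neither of the 2 libraries enters the groups compared, RIS+shHMGA1 against shHMGA1. Both libraries still enter the shared estimate of the spread, and so the standard errors (SE) and p-values given for it. For example, the SE of *TK1* was 0.56, and 0.10 with both left out, while that of *POLD2* was 0.08 in either fit. Of the 52 genes, 45 fell and 0 rose past the thresholds (Benjamini-Hochberg adjusted p under 0.01 in edgeR's quasi-likelihood test and an absolute log2 fold change over 0.58), where 19.5% of the 13356 genes tested fell and 19.6% rose. The median log2 fold change was -1.78 over the 52 genes and -0.02 over all genes tested. In CPM, 45 of the genes were lower in every RIS+shHMGA1 sample than in any shHMGA1 sample, as were 22.5% of all genes. With the 2 libraries left out of the fit the number was again 45. The 7 that did not pass were *DBF4*, *PRIM2*, *POLD2*, *RPA2*, *RPA3*, *DUT* and *TIPIN*. The 8 proliferation markers all fell in this comparison, 6 of 8 senescence markers rose and *LMNB1*, which encodes the nuclear lamina protein lamin B1, fell.

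The comparison of RIS with growing shares no sample with the one above and contains both libraries in question. In the fit of all 24 samples, 0 of the 52 genes and 0% of all genes passed. At an unadjusted p under 0.05, 47 of the 52 were lower and 0 higher. Among all 13356 genes tested, 2689 were lower and 1718 higher at that p. The adjusted p-values of the 52 genes began at 0.014. DESeq2 called 38 of them lower on the same samples, where it called 4.17% of all genes lower. Without growing replicate 4 and RIS replicate 2, edgeR called 45 lower and 0 higher, against 20.5% and 19.2% of all genes, with a median log2 fold change of -1.97 (-1.31 with both libraries). Leaving out only growing replicate 4, or only RIS replicate 2, gave 45 each, where 3420 of 13450 and 2579 of 13435 genes tested passed in either direction. The 7 not called without both libraries were *DBF4*, *POLD2*, *RFC2*, *RPA2*, *RPA3*, *DUT* and *TIPIN*. Groups that did not overlap in CPM numbered 3 genes of the 52 with all samples (0.21% of all genes) and 45 without both libraries (19.3%).

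**Figure D2:**
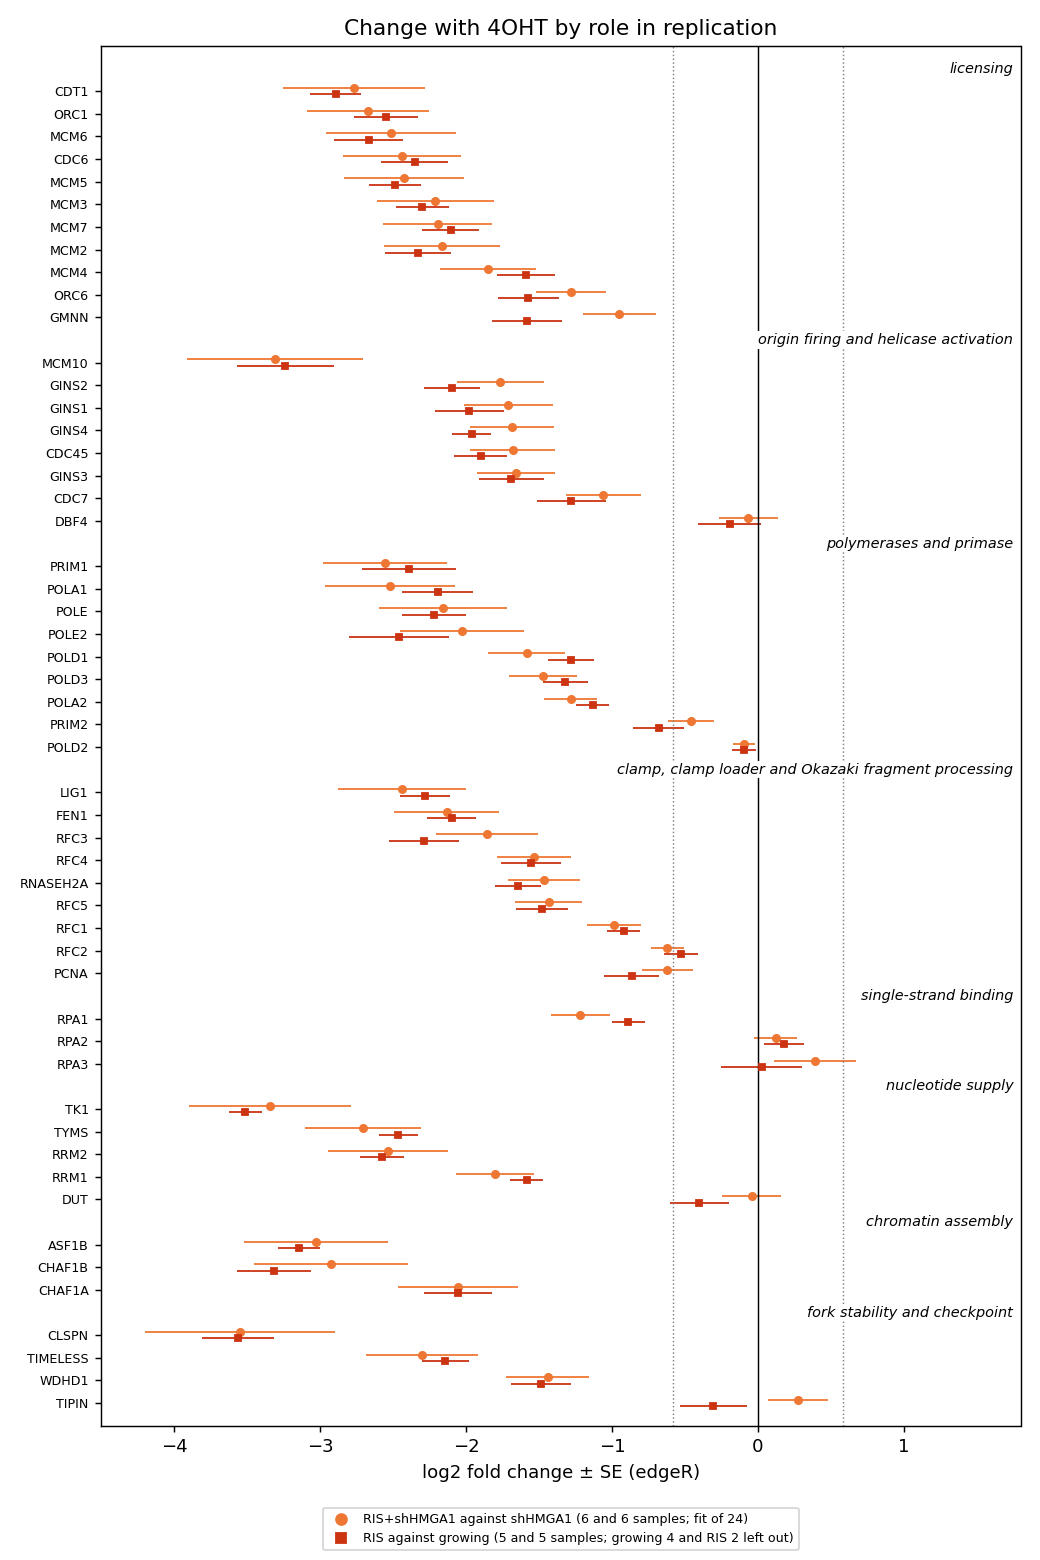
Log2 fold change with its SE (edgeR, horizontal axis) for each of the 52 genes grouped by role, for RIS+shHMGA1 against shHMGA1 (circles) and for RIS against growing without growing replicate 4 and RIS replicate 2 (squares), with dotted lines at the fold-change threshold of 0.58 in either direction. The values run from -3.55 (CLSPN) to 0.39 (RPA3) for the circles, and POLD2, RPA2 and DBF4 lie near 0 in both comparisons.

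All 11 licensing genes fell in RIS+shHMGA1 against shHMGA1, by a median of -2.21 on the log2 scale, and all 11 were lower in RIS without the 2 libraries, by a median of -2.33. *CDT1* (chr16:88870197-88875666 on GRCh37), the MCM loading factor, had the largest change. It ranged from 14.8 to 25.1 CPM in shHMGA1 (median 16.7) and from 2.28 to 3.15 CPM in RIS+shHMGA1 cells (median 2.61). The groups were far apart, and the log2 fold change was -2.77 ± 0.49 (SE, adjusted p = 0.000258). In growing cells *CDT1* was at 2.83 CPM in replicate 4 and 19.9 to 31.9 CPM in the rest, and in RIS cells at 20.9 CPM in replicate 2 and 2.49 to 4.23 CPM in the rest. The difference between RIS and growing was -1.79 ± 0.45 with these libraries (adjusted p = 0.0182) and -2.89 ± 0.17 without them (adjusted p = 1.05e-12).

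*ORC1*, the largest subunit of the origin recognition complex, went from 13.0 to 22.9 CPM in shHMGA1 (median 14.1) to 1.71 to 3.05 CPM in RIS+shHMGA1 cells (median 2.56), a log2 fold change of -2.67 ± 0.42 (adjusted p = 0.000199). Another subunit gene, *ORC6*, changed less, by -1.28 ± 0.24. The 6 helicase genes *MCM2* to *MCM7* fell within a narrow span, from -2.52 for *MCM6* to -1.85 for *MCM4*. *MCM7*, the most abundant of these per kilobase of transcript (43.8 CPM per kb in shHMGA1), was at 104 to 159 CPM in shHMGA1 and 20.9 to 37.2 CPM in RIS+shHMGA1 cells. *GMNN*, which encodes geminin, the inhibitor of CDT1, had the smallest change of the group at -0.95 ± 0.25 (adjusted p = 0.00291), from a median of 35.3 to 21.2 CPM. Thus the loader and its inhibitor both fell, the loader by more. In RIS against growing *GMNN* differed by -1.31 with the 2 libraries and by -1.58 without them.

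Among the 8 genes of origin firing and helicase activation, 7 fell in RIS+shHMGA1 against shHMGA1 and *DBF4* did not pass. *MCM10*, which helps the loaded helicase to start unwinding, ranged from 20.4 to 36.8 CPM in shHMGA1 (median 22.7) and from 1.27 to 3.81 CPM in RIS+shHMGA1 cells (median 2.67). Its log2 fold change of -3.31 ± 0.60 (adjusted p = 0.000286) was the largest of the group. The 4 GINS subunit genes and *CDC45*, which together with MCM form the active helicase, had nearly equal changes, from -1.77 for *GINS2* to -1.66 for *GINS3*. *GINS2* itself went from 32.2 to 52.03 CPM (median 37.9) to 9.54 to 17.0 CPM (median 10.8).

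The kinase gene *CDC7* fell by -1.06 ± 0.26 (adjusted p = 0.00172), whereas *DBF4*, its activator, was at 11.2 to 24.2 CPM in shHMGA1 and 11.51 to 20.3 CPM in RIS+shHMGA1 cells. These ranges overlapped nearly completely, and the log2 fold change of *DBF4* was -0.06 ± 0.20 (adjusted p = 0.79). In RIS against growing without the 2 libraries, *CDC7* was lower by -1.28 ± 0.23 and *DBF4* did not pass, at -0.19 ± 0.21.

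Of the 9 polymerase and primase genes, 7 fell and *PRIM2* and *POLD2* did not pass. The 4 subunits of polymerase alpha-primase, which lays down the RNA-DNA primers, did not move alike. *PRIM1*, the catalytic primase subunit, went from 11.1 to 18.3 CPM (median 14.2) to 1.46 to 3.55 CPM (median 2.44), a log2 fold change of -2.56 ± 0.42 (adjusted p = 0.000221). *POLA1*, the catalytic polymerase subunit, fell by -2.52 ± 0.44 and *POLA2* by -1.28 ± 0.18. The regulatory primase subunit *PRIM2* was at 29.3 to 45.5 CPM in shHMGA1 and 20.8 to 32.0 CPM in RIS+shHMGA1 cells, and its -0.46 ± 0.16 missed both thresholds (adjusted p = 0.0148). In RIS against growing without the 2 libraries, *PRIM2* was lower by -0.68 ± 0.17 (adjusted p = 0.00149).

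The leading- and lagging-strand polymerases were also divided by subunit. *POLE* and *POLE2*, of polymerase epsilon, fell by -2.16 ± 0.44 and -2.03 ± 0.42, and *POLD1* and *POLD3*, of polymerase delta, by -1.59 ± 0.27 and -1.47 ± 0.23. *POLD2*, the second subunit of polymerase delta, was the steadiest of all 52 genes by its SE. It was at 76.2 to 90.7 CPM in growing, 75.4 to 83.8 CPM in shHMGA1, 69.8 to 81.4 CPM in RIS and 63.9 to 81.0 CPM in RIS+shHMGA1 cells, with the 2 libraries in question inside the range of the others in their groups. The 4 groups overlapped, and the log2 fold change was -0.10 ± 0.08 (adjusted p = 0.269) in RIS+shHMGA1 against shHMGA1 and -0.10 ± 0.08 in RIS against growing without those libraries.

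All 9 genes of the clamp, its loader and Okazaki fragment processing fell in RIS+shHMGA1 against shHMGA1. *LIG1*, the ligase that seals Okazaki fragments, went from 17.1 to 23.0 CPM (median 21.6) to 2.34 to 4.56 CPM (median 4.12), by -2.44 ± 0.44 (adjusted p = 0.000273). *FEN1*, the flap nuclease that trims them, fell by -2.13 ± 0.36, from a median of 48.0 to 12.4 CPM. Among the 5 subunits of the clamp loader RFC, the changes spread from -1.85 ± 0.35 for *RFC3* through -1.53 for *RFC4*, -1.44 for *RFC5* and -0.99 for *RFC1* to -0.62 ± 0.11 for *RFC2*, so the subunits of this complex differed in size of change. *RFC2* just passed the fold-change threshold here and just missed it in RIS against growing without the 2 libraries (-0.53 ± 0.12).

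*PCNA* (chr20:5095599-5107272 on GRCh37), which encodes the sliding clamp, fell least of the group. Per kilobase of its canonical transcript it had the highest level of the 52 genes, with a median of 147 CPM per kb in shHMGA1 and 103 CPM per kb in RIS+shHMGA1 cells. In CPM it ranged from 153 to 249 in shHMGA1 (median 188) and from 106 to 141 in RIS+shHMGA1 cells (median 131). The groups did not overlap, with a log2 fold change of -0.62 ± 0.17 (adjusted p = 0.00466). RIS cells had 55.5 to 88.5 CPM and growing cells 88.8 to 214 CPM, a difference of -0.79 ± 0.18 (adjusted p = 0.015), and -0.87 ± 0.19 without the 2 libraries (adjusted p = 0.000322). *RNASEH2A*, the catalytic subunit of a nuclease that removes RNA from DNA, fell by -1.47 ± 0.24.

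The 3 subunits of RPA, the complex that coats single-stranded DNA, did not move together. *RPA1*, the large subunit, went from 81.2 to 103 CPM in shHMGA1 (median 88.2) to 32.8 to 47.2 CPM in RIS+shHMGA1 cells (median 36.6) and fell by -1.22 ± 0.20 (adjusted p = 0.000225). *RPA2* was at 50.6 to 69.1 CPM in shHMGA1 and 57.4 to 74.2 CPM in RIS+shHMGA1 cells, a log2 fold change of 0.12 ± 0.15 that did not pass. *RPA3* was at 16.7 to 34.6 and 20.1 to 42.0 CPM and differed by 0.39 ± 0.28 (adjusted p = 0.221). In RIS against growing without the 2 libraries, *RPA1* was likewise lower (-0.89 ± 0.11), and *RPA2* and *RPA3* did not pass (0.18 ± 0.14 and 0.03 ± 0.28).

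Of the 5 genes of nucleotide supply, 4 fell. *TK1*, the S-phase thymidine kinase, ranged from 67.9 to 86.6 CPM in shHMGA1 (median 76.0) and from 7.12 to 8.04 CPM in RIS+shHMGA1 cells (median 7.39). Replicates of *TK1* were close within each group, and the log2 fold change was -3.34 ± 0.56 (adjusted p = 0.000222). In growing cells it was at 7.46 CPM in replicate 4 and 58.5 to 80.1 CPM in the rest, and in RIS cells at 59.2 CPM in replicate 2 and 5.70 to 7.39 CPM in the rest. The RIS difference was -2.01 ± 0.52 with these libraries (adjusted p = 0.0195) and -3.51 ± 0.11 without them (adjusted p = 1.76e-17), the smallest adjusted p of the 52 genes.

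*TYMS*, thymidylate synthase, fell by -2.71 ± 0.40, and *RRM2* and *RRM1*, the subunits of ribonucleotide reductase, by -2.53 ± 0.41 and -1.80 ± 0.27. *RRM2* was the most abundant of the supply genes per kilobase in shHMGA1 cells, at 88.5 CPM per kb, and at 14.6 CPM per kb in RIS+shHMGA1 cells. *DUT*, whose product breaks down dUTP and so keeps uracil out of DNA, did not pass. It was at 55.1 to 78.6 CPM in shHMGA1 (median 62.3) and 37.8 to 81.5 CPM in RIS+shHMGA1 cells (median 68.3), with a log2 fold change of -0.04 ± 0.20.

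The 3 chromatin assembly genes, which place histones on new DNA, all fell. *ASF1B*, a histone chaperone, went from 22.0 to 34.0 CPM (median 23.7) to 2.66 to 3.77 CPM (median 3.09), by -3.03 ± 0.49 (adjusted p = 0.00021). The CAF-1 subunit genes *CHAF1B* and *CHAF1A* fell by -2.93 ± 0.53 and -2.06 ± 0.41. Without the 2 libraries the RIS differences were -3.15, -3.31 and -2.05 in the same order.

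Among the 4 fork stability and checkpoint genes, *CLSPN* had the largest change of all 52. *CLSPN* encodes claspin, which relays the replication checkpoint signal, and ranged from 19.9 to 36.9 CPM in shHMGA1 (median 26.5) and from 1.76 to 3.81 CPM in RIS+shHMGA1 cells (median 2.09). The log2 fold change was -3.55 ± 0.65 (adjusted p = 0.000289), and in RIS against growing -2.01 ± 0.59 with the 2 libraries and -3.56 ± 0.25 without them. *TIMELESS* and *TIPIN* encode partners in 1 fork protection complex. *TIMELESS* fell by -2.31 ± 0.38, from a median of 36.8 to 8.06 CPM, whereas *TIPIN* was at 8.87 to 15.3 CPM and 11.01 to 18.7 CPM and did not pass (0.27 ± 0.21, adjusted p = 0.247). *WDHD1*, which links the helicase to polymerase alpha, fell by -1.44 ± 0.29.

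**Figure D3:**
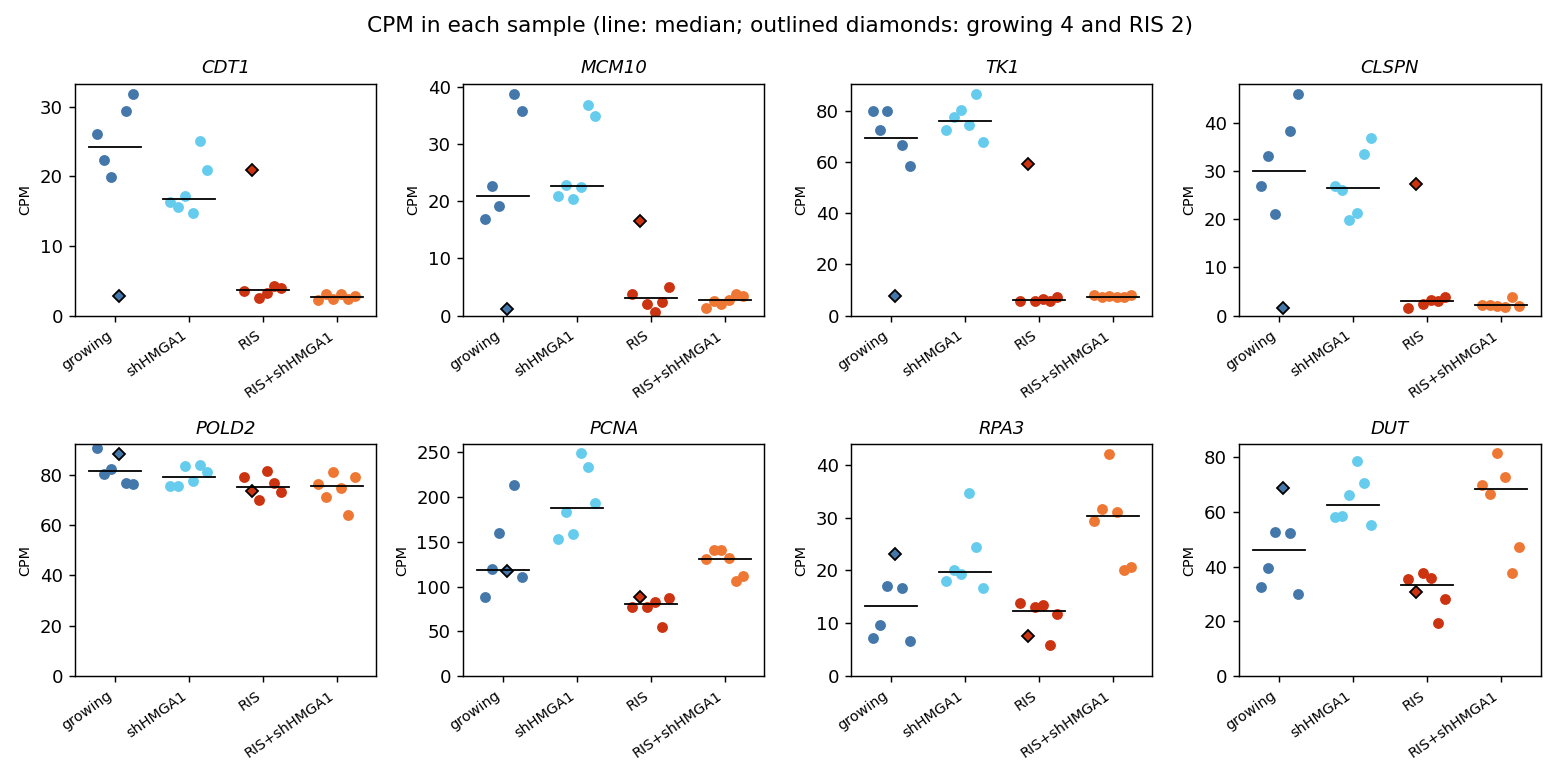
CPM (vertical axes, linear from 0) of 8 replication genes in each sample by group, with the group median as a line and growing replicate 4 and RIS replicate 2 as outlined diamonds. CDT1, MCM10, TK1 and CLSPN are low in 4OHT-treated samples other than RIS replicate 2, POLD2 is level across groups, and PCNA, RPA3 and DUT are higher in every RIS+shHMGA1 sample than in any RIS sample.

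The E2F motif was present both in genes that fell and in genes that did not. Counting any window of a gene, it was found in 18 of the 41 genes with a window that fell in RIS+shHMGA1 against shHMGA1 (43.9%). It was also in 2 of the 5 with a window that did not pass (40%), *DUT* and *TIPIN*. The 41 genes had 51 windows and the 5 had 10. In the first listed window of each gene, the motif was in 16 of the 41 (39%) and 0 of the 5. *CDT1* and *PCNA*, which both have a printed motif upstream of the start, fell by -2.77 and -0.62.

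RIS+shHMGA1 was also compared with growing, a comparison that shares its samples with both RIS+shHMGA1 against shHMGA1 and RIS against growing. It called 42 of the 52 genes lower and 1, *RPA3*, higher, where 23.9% of all genes were lower and 22% higher. Without growing replicate 4 (and RIS replicate 2, which stays outside this contrast) 43 were lower and 2 higher, *RPA3* and *DUT*, against 28.5% and 28.3% of all genes. *RPA3* rose by 1.13 ± 0.29 (adjusted p = 0.00187), and by 1.36 ± 0.26 without the 2 libraries (adjusted p = 6.09e-05). *PCNA* did not pass in this comparison, at -0.09 ± 0.17 with and -0.13 ± 0.18 without them, with 88.8 to 214 CPM in growing and 106 to 141 CPM in RIS+shHMGA1 cells.

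In cells without 4OHT, none of the 52 genes passed between shHMGA1 and growing in edgeR (0 of 52, against 0.27% of all genes in either direction) and 0 passed in DESeq2. At an unadjusted p under 0.05, 9 were higher in shHMGA1 and 0 lower, where 1759 of all 13356 genes tested reached that p in either direction. Those 9 were *ORC6*, *GINS1*, *PRIM2*, *PCNA*, *RFC4*, *RFC5*, *RNASEH2A*, *RPA3* and *DUT*, and their log2 fold changes ran from 0.34 to 0.74. Without the 2 libraries 9 were higher at that p, a smaller share than the 2740 of all 13416 genes tested, and 3 were lower. *GINS2*, *RPA2* and *TYMS* joined the higher genes, *PRIM2*, *RFC4* and *RFC5* left them, and the lower ones were *CDT1*, *POLE* and *RFC1*. *RNASEH2A* was at 18.1 CPM in growing replicate 4, 29.2 to 46.7 CPM in the other growing samples and 42.6 to 65.4 CPM in shHMGA1 cells. Without the 2 libraries it was the 1 gene that passed, at 0.60 (adjusted p = 0.00956), where 1.21% of all genes passed as higher. The median log2 fold change of the 52 genes was 0.24 with them and 0.08 without them.

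Among 4OHT-treated cells, 2 of the 52 genes were higher in RIS+shHMGA1 than in RIS and 0 lower, where 1.77% of all genes were higher and 0.786% lower. Leaving out replicate number 1, 2, 3, 5 or 6 from every group gave 0 of the 52 each, where 14 to 78 of all genes tested passed. Leaving out number 4 gave 3, where 2205 of all 13383 genes tested passed. *RPA3* (chr7:7676149-7758238 on GRCh37) was at 13.8, 7.62, 13.2, 13.5, 5.92 and 11.7 CPM in RIS replicates 1 to 6 and at 29.4, 31.7, 42.0, 31.0, 20.1 and 20.6 CPM in RIS+shHMGA1 replicates 1 to 6. Every hairpin sample was above every vector sample, and the log2 fold change was 1.41 ± 0.29 (adjusted p = 0.0054). *DUT* (chr15:48623208-48635570 on GRCh37) was at 35.7, 30.7, 37.7, 36.0, 19.4 and 28.1 CPM in RIS and at 69.9, 66.6, 81.5, 72.5, 37.8 and 47.3 CPM in RIS+shHMGA1 cells. Its groups did not overlap either, although the nearest samples were at 37.7 and 37.8 CPM, and it rose by 1.00 ± 0.21 (adjusted p = 0.00536).

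Without growing replicate 4 and RIS replicate 2, 6 genes were higher and 0 lower, against 10% and 2.5% of all genes. They were *ORC6* (0.74), *GINS2* (0.75), *PCNA* (0.74), *RNASEH2A* (0.77), *RPA3* (1.33) and *DUT* (1.00). Leaving out RIS replicate 2 alone gave 0, where 141 of all 13435 genes tested passed in either direction. Leaving out growing replicate 4 alone gave 6, of which 4 were higher and 2 lower, where 2555 of all 13450 genes tested passed. The median log2 fold change over the 52 genes was -0.35 with all samples, -0.35 without growing replicate 4, which is outside this contrast, and 0.06 without RIS replicate 2, so its sign rested on that 1 library. In CPM, 4 genes were higher in every RIS+shHMGA1 than in any RIS sample (8% of all genes) and 1, *RFC1*, was lower (5.23%), and without RIS replicate 2 these were 8 (8.62%) and 1 (6.24%).

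Transcript length moved with the differences of these genes. Across the 52 genes, the log2 fold change of RIS+shHMGA1 against RIS fell with the length of the canonical transcript (Spearman's rho = -0.51, and -0.57 without the 2 libraries). The same was seen over all tested genes with a length (rho = -0.47, and -0.47 without them). Genes are not independent replicates, and they share libraries. The 26 replication genes with shorter transcripts had a median log2 fold change of 0.17 and the 26 with longer transcripts -0.65, and 0.38 and -0.08 without the 2 libraries. The part of length in the differences was not tested.

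**Figure D4:**
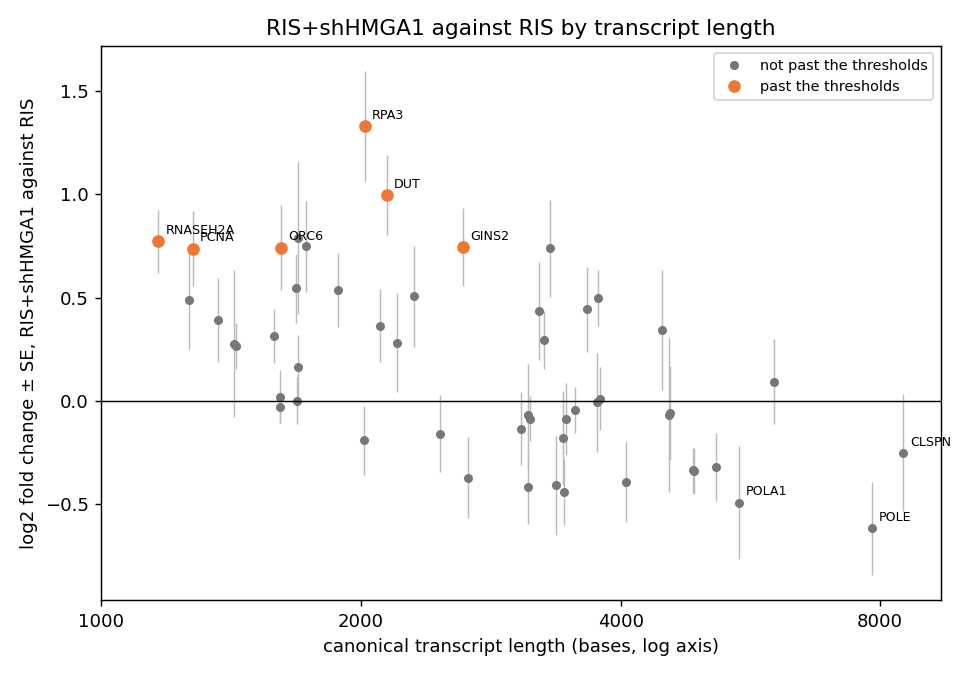
Log2 fold change with its SE of RIS+shHMGA1 against RIS (edgeR without growing replicate 4 and RIS replicate 2, vertical axis) against canonical transcript length in bases (log axis) for the 52 replication genes. The 6 genes past the thresholds, all higher, have transcripts of 1164 to 2628 bases, and POLE, at 7823 bases, has the lowest value, -0.62.

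The same correlation was computed for the other contrasts. In shHMGA1 against growing rho was -0.48 over the 52 genes and -0.56 without the 2 libraries. In RIS+shHMGA1 against shHMGA1 rho was -0.29 over the 52 genes and -0.33 over all genes, and the medians were -1.60 for the shorter and -2.11 for the longer genes. Both subsets were therefore far below 0 in that comparison. For single samples, length was correlated with the log2 CPM of the 52 genes, each relative to its mean in the other samples of the group. Growing replicate 4 and RIS replicate 2 were left out of these means. The correlation ran from -0.635 (growing replicate 3) to 0.629 (growing replicate 6), so samples of 1 group differed in it as well.

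Whether the hairpin altered the response to 4OHT was tested as an interaction, and 0 of the 52 genes and 0% of all genes passed in edgeR. At an unadjusted p under 0.05 there were 3 of the 52, a smaller share than the 1371 of all 13356 genes tested. The 3 were *RPA1* (-0.68 ± 0.29), *TYMS* (-1.15 ± 0.53) and *TIPIN* (0.61 ± 0.29), each with an adjusted p of 0.426. Without the 2 libraries *RPA1* was at -0.33 ± 0.15, *TYMS* at -0.24 ± 0.17 and *TIPIN* at 0.57 ± 0.30, and among them *RPA1* alone kept an unadjusted edgeR p under 0.05. In that fit edgeR called 1 gene in all and 0 of the 52. DESeq2 gave no adjusted p for 50 of the 52 here and could not call those. *RPA3* (0.68 ± 0.40) and *DUT* (0.51 ± 0.29), which were higher with the hairpin under 4OHT, did not pass as interactions, nor did they without the 2 libraries (0.37 ± 0.37 and 0.36 ± 0.27). Exon bases of 9 of the 52 genes are shared with another coding gene in the annotation, and for *TYMS* (967 bases, with *ENOSF1*), *PRIM1* (123), *RPA3* (118) and *GINS2* (7) that gene lies on the opposite strand. The largest overlaps on the same strand are 1978 bases of *POLA2* with another gene, and 1095 of the 1164 canonical bases of *RNASEH2A* with *THSD8*. The strand setting of the counting is not given in the sources used here, so reads of opposite-strand overlaps cannot be told apart. No strand setting separates genes on the same strand.

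Across the 24 samples the 52 genes varied together, with a median Pearson correlation of log2 CPM of 0.88 over their 1326 pairs, which share libraries and group differences. Within single groups of 6 samples the median was 0.86 in growing and 0.80 in RIS cells, each of which holds 1 library that stands apart, 0.70 in shHMGA1 cells and near 0 (-0.0039) in RIS+shHMGA1 cells. The shared variation was thus present among the untreated hairpin samples and was not seen among the treated ones, where the mean log2 CPM spanned only 3.47 to 3.54. In shHMGA1 cells the mean was 5.53 and 5.39 in replicates 5 and 6, against 4.98 to 5.18 in the rest. The same 2 replicate numbers had the highest means in growing cells. *HMGA1* was at 58.1 and 54.4 CPM in shHMGA1 replicates 5 and 6, and at 98.7 to 143 CPM in the rest. The part of this step between replicates in the shHMGA1 correlation was not tested.

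A further 32 replication genes were examined outside the 52. In RIS+shHMGA1 against shHMGA1, 15 fell, 5 rose and 12 did not pass, where 19.5% of all genes fell and 19.6% rose, with a median log2 fold change of -0.43. Those that fell most were *TOP2A* (-3.53 ± 0.61), the topoisomerase that untangles sister chromatids, *UHRF1* (-2.98 ± 0.52), which maintains DNA methylation, and *ATAD5* (-2.39 ± 0.43), which unloads PCNA. Of the other subunit genes of the origin recognition complex, *ORC2* (0.42 ± 0.18) and *ORC3* (-0.07 ± 0.11) did not pass. *ORC4* (1.32 ± 0.35) and *ORC5* (1.21 ± 0.29) rose, opposite to *ORC1* and *ORC6* among the 52. *RRM2B* (1.19 ± 0.31), the p53-induced small subunit of ribonucleotide reductase, also rose, opposite to *RRM2*, as did *POLE4* (0.74 ± 0.22) and *RNASEH2C* (0.80 ± 0.21). In RIS against growing, 0 of the 32 passed with all samples, and without the 2 libraries 16 fell and 4 rose, against 20.5% and 19.2% of all genes. The genes of this list that rose were no larger a share than among all genes.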

How the data were processed

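RNA-seq libraries (TruSeq Stranded mRNA, HiSeq-2500) of 24 samples were analysed, 6 in each of 4 groups, with group and replicate number taken from the sample titles. The authors mapped reads to hg19 with STAR 2.5.0b, removed adapters (cutadapt 1.10.0) and reads of mapping quality under 20, and deposited raw counts per Entrez gene from Rsubread, without normalisation. The annotation and strand setting are not given in the sources used here.

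Symbols came from RefSeq (23696 of 25702 identifiers). Counts were tested in edgeR 4.0.16 (R 4.3.3) with filterByExpr by group, which left 13356 genes, TMM, and a quasi-likelihood fit of 4 group means to all 24 samples. Genes were called at a Benjamini-Hochberg FDR under 0.01 over all genes tested and an absolute log2 fold change over 0.58. Log2 CPM used a prior count of 2. The 52 genes, the lists, the roles and the motifs were chosen with earlier results of these data known. Named genes were, in each role, those with the 2 largest changes and the smallest change, and any other of the 52 could be named. P-values set the difference between groups against the spread of biological replicates within groups. In the main fit this spread was estimated over all 24 samples, with growing replicate 4 and RIS replicate 2 included. No pair of samples within a group differed by as little as counting noise. The main fit did not pair samples by replicate number. Deviations of same-numbered samples had a mean correlation of 0.175 (24 of 36 pairs over 0.1, lowest -0.594). For different numbers the mean was -0.0496 (57 of 180 pairs over 0.1). What the numbers stand for is not given in the sources used here, and fits with a replicate block are given below. Scripts were tested on simulated data.

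Alternatives were DESeq2 1.42.0, RLE normalisation, no low-count filter, at least 1 CPM in 6 samples, the replicate block, only the samples of the contrast, an FDR of 0.05, and leaving out each replicate number. Leaving out growing replicate 4, RIS replicate 2 or both was added after seeing the data. Gene positions and transcript lengths are from GENCODE for GRCh37 (94.6% of tested genes had a length), and promoter windows from RefSeq on GRCh38.p14. The windows were matched by Entrez identifier.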

Additional observations from a re-analysis of the deposited data

Results flagged for a closer look

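In groups of 6, a sample was singled out where its gap to the nearest other sample as a share of the group's range (Dixon's ratio) exceeded the critical value for that size. Of 104 tests, 28 did so, where chance would give about 5.2. Most concerned RIS replicate 2, the highest of its group, with a ratio of 0.774 for the mean log2 CPM of the 52 genes. For single genes its ratio was 0.905 for *CDT1*, 0.856 for *ORC1*, 0.726 for *MCM10*, 0.872 for *GINS2*, 0.637 for *PRIM1*, 0.787 for *POLA1*, 0.82 for *LIG1* and 0.865 for *FEN1*. It was 0.629 for *RPA1*, 0.968 for *TK1*, 0.907 for *TYMS*, 0.961 for *ASF1B*, 0.861 for *CHAF1B*, 0.821 for *CHAF1A*, 0.916 for *CLSPN* and 0.8 for *TIMELESS*. Growing replicate 4 was the lowest of its group, with 0.668 for the mean log2 CPM, 0.676 for *LIG1*, 0.797 for *RPA1*, 0.703 for *TK1* and 0.687 for *ASF1B*.

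RIS replicate 5 was the lowest of its group for *PCNA* (0.645) and *TIPIN* (0.657). *LIG1* was lowest in shHMGA1 replicate 4 (0.626), and *CLSPN* highest in RIS+shHMGA1 replicate 5 (0.743), at 3.81 CPM. Total counts stood apart in growing replicate 1 (0.796, at 23103424) and RIS replicate 3 (0.684, at 13195878).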

How the results depend on the processing

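Numbers below are counts of the 52 genes past the thresholds. For RIS against growing (0), DESeq2 gave 38 (829 of all 13356 genes tested) and an FDR of 0.05 gave 44 (1537 of 13356). Leaving out growing replicate 4, RIS replicate 2 or both gave 45 each (3420 of 13450, 2579 of 13435 and 5331 of 13416). Leaving out each replicate number in turn gave 0 to 45, with 43 without number 2 and 45 without number 4. For shHMGA1 against growing (0), leaving out both libraries gave 1 (*RNASEH2A*, higher). For RIS+shHMGA1 against RIS the count was 2, both higher, where 341 of all 13356 genes tested passed in either direction. DESeq2 gave 4 higher (1533 of all 13356), and an FDR of 0.05 gave 8, 4 higher and 4 lower (2898 of 13356). Leaving out both libraries gave 6 higher (1677 of 13416). Leaving out growing replicate 4 gave 6, 4 higher and 2 lower (2555 of 13450). Leaving out RIS replicate 2 gave 0 (141 of 13435), and leaving out each replicate number gave 0 to 3 (14 to 2205 of all genes). The cause of these changes was not tested. RIS+shHMGA1 against shHMGA1 gave 42 to 45 and RIS+shHMGA1 against growing 36 to 44 without each replicate number, and the interaction 0 in every edgeR fit. RLE normalisation, both low-count filters and the fits to the samples of a contrast stayed within 1.5 times the reported counts. A replicate block gave 0 for RIS, 0 for shHMGA1 and 42 for RIS+shHMGA1 (each against growing). It gave 45 for RIS+shHMGA1 against shHMGA1, 3 for RIS+shHMGA1 against RIS, and 0 for the interaction. With the block and without both libraries, the count was 45 for RIS against growing and 6 for RIS+shHMGA1 against RIS. For shHMGA1 against growing it was 1 (*POLE*, lower, with *RNASEH2A* not called). DESeq2 gave no adjusted p for *TK1* in any contrast and for 50 of the 52 genes in the interaction. No named gene past the thresholds changed sign under an alternative.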

Other observations

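Outside the 52 genes, 5 of the other 32 replication genes were higher in RIS+shHMGA1 than in RIS once growing replicate 4 and RIS replicate 2 were left out, and 0 were lower. These were *ORC4* (log2 fold change 0.85), *ORC5* (0.84), *POLE4* (0.66), *RNASEH2B* (0.86) and *RNASEH2C* (0.72), each with an adjusted p under 0.01 in edgeR, where 10% of all genes were higher. With all samples 1 passed, *RNASEH2B* (0.91 ± 0.21, adjusted p = 0.00899). Together with *RNASEH2A* among the 52, all 3 subunit genes of ribonuclease H2 were thus higher without the 2 libraries, a pattern noticed in the data. With all samples *RNASEH2A* did not pass (0.41 ± 0.24, adjusted p = 0.176), and 1095 of its 1164 canonical bases are shared with *THSD8*. Canonical transcripts of the 3 genes had 1164, 1513 and 2645 bases, and over all genes the change fell with length (rho = -0.47). The part of length was not tested. The share of counts taken by the 10 most abundant genes was 15.9% to 22.4% in RIS+shHMGA1, 7.03% to 16.8% in RIS, 6.02% to 6.74% in shHMGA1 and 6.497% to 18.4% in growing cells, and its part in these values was not tested.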
